A study of Mus musculus with 15 samples.

Results

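Naive and resting memory T cells are held in place by a small set of transcription factors, and 10 of their genes were followed here: Tcf7, Lef1, Foxo1, Foxo3, Bach2, Foxp1, Satb1, Myb, Prdm1 and Klf13. They were picked by gene symbol out of 55421 annotated genes, and the list was drawn up with earlier results of these data known. The samples were CD4+ T cells recovered from the spleen or the mesenteric lymph nodes (mLN) of Rag2-/- mice, which have no T or B cells of their own, 6 weeks after the animals had received naive T cells. The transferred cells were either WT (Prkaa1 fl/fl, without Cre) or KO (the same floxed allele with CD4-Cre), all on the C57BL/6 background. Mice entered experiments at 6 to 8 weeks of age, with donors and recipients not told apart in the sources used here. Prkaa1 encodes the catalytic α1 subunit of AMPK, a kinase that senses low energy. CD4-Cre is active from the double-positive thymocyte stage on, so the gene is targeted before the donor cells mature. The groups held 4 WT spleen, 4 KO spleen, 3 WT mLN and 4 KO mLN samples, and the labels carry the numbers 1, 2 and 4 for WT mLN because the study excluded a WT mLN sample at quality control. Whether spleen and mLN samples of the same number came from the same recipient is not given in the labels.

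TCF-1 (from Tcf7) and LEF-1 (from Lef1) are related HMG-box proteins that bind the same DNA motif and are high in naive and central memory T cells. FOXO1 and FOXO3 are forkhead factors that leave the nucleus when AKT phosphorylates them, and AMPK is also known to phosphorylate FOXO3. In T cells they sustain genes of survival and lymph node homing such as Il7r, Klf2 and Ccr7. BACH2, FOXP1 and the chromatin organizer SATB1 restrain effector programs or shape the chromatin of resting T cells, MYB is known from progenitor and stem-like memory cells, and KLF13 is a zinc-finger protein first described as an activator of Ccl5 in T cells. Blimp-1, from Prdm1, stands on the opposite side as a repressor that is high in effector cells and that BACH2 is known to repress.

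The upstream sequences of 4 members are shown, from RefSeq on GRCm38.p6, each covering the 250 bases before an annotated start and written 5′ to 3′ along the gene. Satb1 and Klf13 are shown because their levels were the closest pair of the 10 genes, and Bach2 and Prdm1 because each upstream stretch holds the motif of another member's protein. Capitals mark matches to 1 of 7 searched motifs.
Satb1 (chr17:51833291-51833540, minus strand): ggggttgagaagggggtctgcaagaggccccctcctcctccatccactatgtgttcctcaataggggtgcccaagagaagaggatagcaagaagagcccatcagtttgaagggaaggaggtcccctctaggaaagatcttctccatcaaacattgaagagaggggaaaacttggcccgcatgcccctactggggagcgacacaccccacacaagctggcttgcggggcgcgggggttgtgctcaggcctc
Klf13 (chr7:63938916-63939165, minus strand): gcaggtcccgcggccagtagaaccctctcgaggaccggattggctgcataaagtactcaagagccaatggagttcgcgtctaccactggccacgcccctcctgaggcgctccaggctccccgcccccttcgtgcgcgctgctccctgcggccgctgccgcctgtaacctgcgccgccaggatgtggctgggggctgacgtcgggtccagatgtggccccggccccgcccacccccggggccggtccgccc
Bach2 (chr4:32417185-32417434, plus strand): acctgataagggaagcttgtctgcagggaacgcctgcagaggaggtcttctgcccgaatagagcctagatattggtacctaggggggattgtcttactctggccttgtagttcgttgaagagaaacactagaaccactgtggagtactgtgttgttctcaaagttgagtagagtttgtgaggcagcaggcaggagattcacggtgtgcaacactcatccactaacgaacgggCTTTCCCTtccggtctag
Prdm1 (chr10:44458749-44458998, minus strand): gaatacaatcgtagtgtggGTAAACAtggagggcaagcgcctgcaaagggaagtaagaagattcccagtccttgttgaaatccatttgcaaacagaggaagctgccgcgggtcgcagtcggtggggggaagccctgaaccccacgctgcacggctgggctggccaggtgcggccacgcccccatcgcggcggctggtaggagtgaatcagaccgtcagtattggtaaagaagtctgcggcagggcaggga

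The motifs were searched on both strands in the 250 bases before each of the 20 RefSeq starts listed for the 10 genes and before all 32851 starts of the table. The forkhead motif TGTTTAC lay before the listed start of Prdm1 and before 3.17% of all starts. The PRDM1 motif AGNGAAAG lay before the listed start of Bach2 and before 7.30% of all starts. The TCF/LEF motif CTTTGAA was found before a start of Foxp1 and in 4.46% of all, its other form CTTTGAT before none of the 20 and in 3.21% of all. The MYB motif CAACTG lay before 2 starts of Foxp1 and 11.1% of all, the KLF motif CCACACCC before a start of Tcf7 and 3.20% of all, and the AP-1 and BACH motif TGAGTCA before none of the 20 and 4.46% of all. The stretches of Satb1 and Klf13 held none of the 7 motifs. The stretches shown also differed in base composition, with 58.0% G and C and 5 CpG sites for Satb1 against 71.6% and 24 for Klf13. The other Satb1 starts ran from 50.8% to 80.8% G and C and from 3 to 41 CpG sites, so this difference depends on the start. A match describes letters in these windows and does not show that the protein binds there. Satb1 has 5 listed starts, of which the outermost is shown, and the counts do not tell which start was used. Bach2 and Prdm1 have 1 listed start each, which lies inside the GENCODE gene body (chr4:32238804-32586108 and chr10:44437177-44528501). Their windows are therefore not upstream of the outermost annotated start.

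Each sample had between 9363940 and 11283439 reads on genes (median 10545309). Levels below are counts per 1000000 reads on genes after TMM scaling over all 15 samples (CPM), and all 10 members were counted well above zero in every sample, from 66 reads for Bach2 or Myb up to 6170 for Klf13. The targeted gene checked the labels, since Prkaa1 lay between 46.6 and 60.6 CPM in the 7 WT samples and between 18.4 and 32.3 CPM in the 8 KO samples, with log2 fold changes of -1.33 in spleen (adjusted p = 7.63e-05) and -0.95 in mLN (adjusted p = 0.0372) from edgeR. Within KO cells Prkaa1 was higher in mLN than in spleen, with means of 27.95 and 20.02 CPM (edgeR, log2 fold change 0.46, adjusted p = 0.0361). The source of the Prkaa1 reads that remained in KO cells was not tested. Prkaa2, the other catalytic subunit, had at most 1 read in any sample. The summed level of 8 CD4 T cell markers was 5593 to 8208 CPM, while 6 B cell markers summed to at most 8.81 CPM and 4 plasma cell markers to at most 1.38 CPM. Myeloid transcripts were more abundant, with 8 markers summing to between 52.7 CPM (WT mLN replicate 4) and 384.5 CPM (KO spleen replicate 3). Haemoglobin transcripts stood out in 3 WT samples, where Hbb-bs reached 1006 CPM (spleen replicate 3), 449 CPM (spleen replicate 4) and 442 CPM (mLN replicate 4) against 8.02 to 59.3 CPM in the other samples.

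Per kilobase of exon, Tcf7 had the highest level of the 10 genes in all 4 groups, at 131 ± 18.1 CPM per kilobase (SD, n = 4) in WT spleen and 168 ± 8.70 (SD, n = 3) in WT mLN. Klf13 came next at 65.7 ± 14.3 and 71.5 ± 4.77 CPM per kilobase and Lef1 after it at 21.3 ± 5.66 and 35.0 ± 6.30. These 3 places were the same in the KO groups, with no overlap between neighbours. Satb1, Foxp1 and Foxo1 followed, and in WT spleen their sample values overlapped in turn, at 13.1 ± 3.76, 9.92 ± 2.26 and 8.55 ± 0.672 CPM per kilobase. In KO spleen the middle of the order ran Foxo1, Foxp1, Satb1 and Foxo3, from 9.25 ± 0.433 down to 7.18 ± 0.726 CPM per kilobase, with each neighbour overlapping the next. Prdm1 lay at 2.37 to 3.80 CPM per kilobase over the group means. Bach2 and Myb were the lowest in every group, with means between 0.871 and 1.48 CPM per kilobase, and they did not overlap in KO spleen, where Myb was above Bach2, or in WT mLN, where Bach2 was above Myb. The order rests on the merged length of all annotated exons, 2625 bases for Tcf7 and 19027 for Satb1, whether or not each exon was used. In CPM without length, mean Klf13 exceeded Tcf7 in WT spleen (495.1 against 342.8) and WT mLN (538.3 against 440.4), but not in the KO groups.

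**Figure D1:**
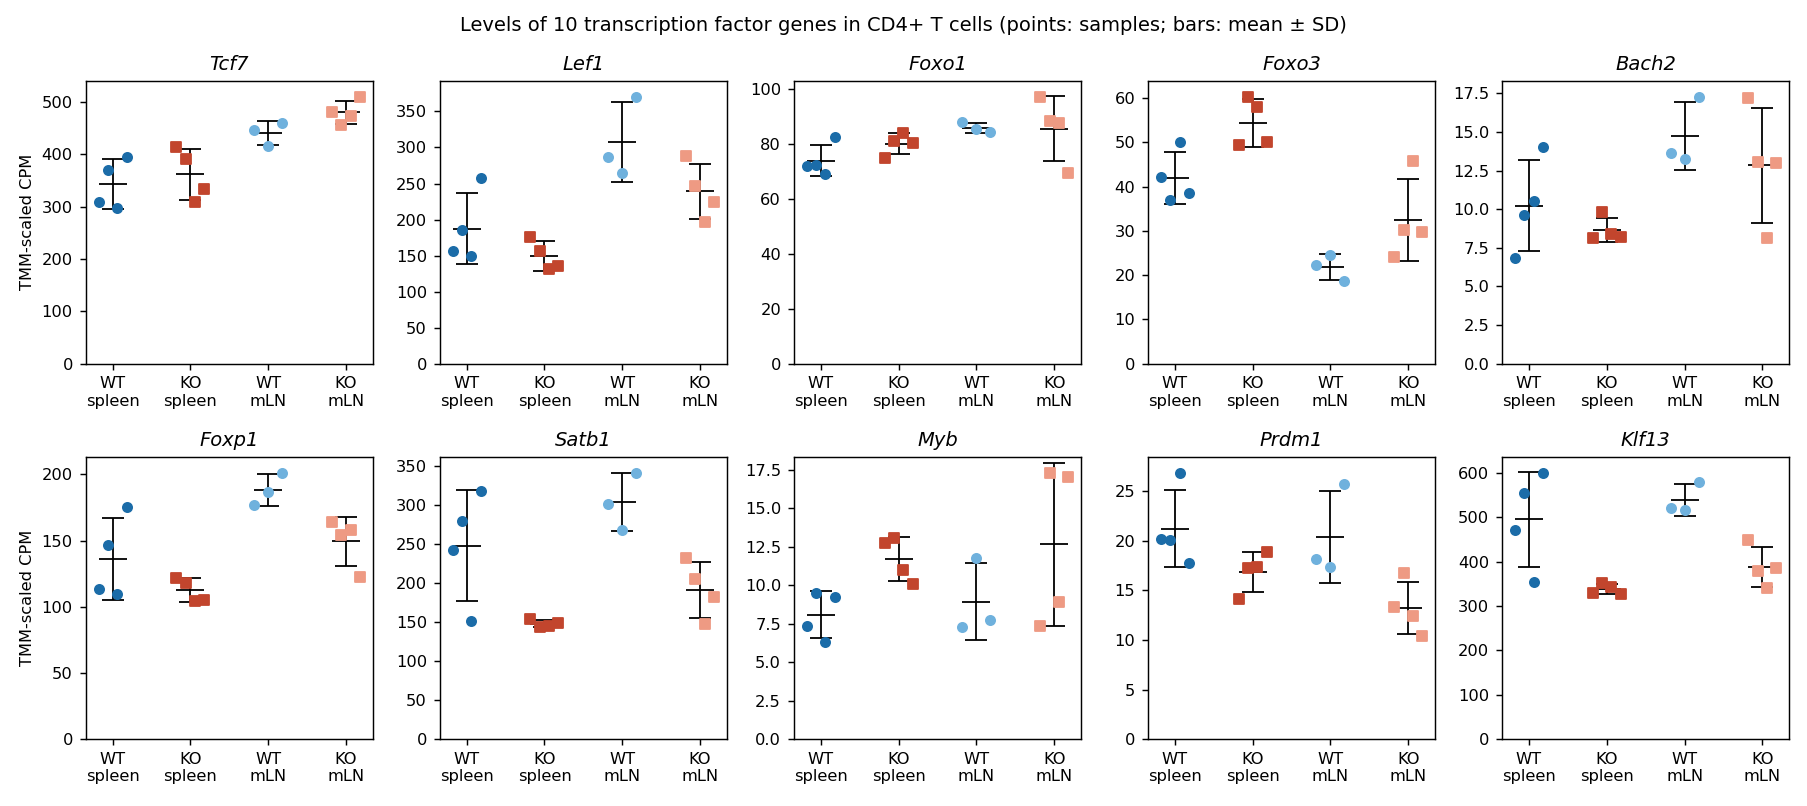
TMM-scaled CPM of each of the 10 genes in every sample (points), with the group mean and SD (bars), for WT and KO cells of spleen and mLN. Each vertical axis starts at 0. Satb1 and Klf13 were lower in KO than in WT means in both organs, and Foxo3 was lower in mLN than in spleen in both genotypes.

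The first comparison asks whether these factors differed between KO and WT cells. The paper used this transfer as a colitis model, in which recipients of WT cells lost weight and recipients of KO cells kept theirs. It reports only mild inflammation in the recipients of KO cells. Effects of the gene within the cells and of the recipients' disease therefore cannot be told apart here. No member passed the test (edgeR quasi-likelihood test, adjusted p under 0.05 over all tested genes) in spleen or in mLN, where 1.3% of 14254 and 0.641% of 14359 tested genes passed. At an unadjusted p under 0.05 there were 5 members in spleen and 6 in mLN, against 20.5% and 15.7% of all tested genes. DESeq2 called 2 members, Satb1 and Klf13, lower in KO in both organs, where it called 5.77% of all genes in spleen and 4.11% in mLN. Of 10 handling and early response genes, 8 were tested in spleen, where Fos, Fosb and Hspa1a rose in KO, and 9 in mLN, where Junb and Ier2 fell. Fos lay at 21.4 to 58.1 CPM in WT spleen and 113 to 176 CPM in KO spleen, a log2 fold change of 1.88 (SE 0.26, adjusted p = 0.0133). The 10 genes summed to 1170 to 1855 CPM in WT and 1492 to 1572 CPM in KO spleen. In mLN they summed to 938 to 1528 CPM in WT and 624 to 789 CPM in KO. The 2 CD8 T cell markers summed to 7.31 to 11.5 CPM in WT mLN and 19.5 to 28.3 CPM in KO mLN. Mean Cd8a was 4.84 CPM in WT mLN and 18.5 CPM in KO mLN, while mean Cd8b1 was alike at 4.5 and 4.3 CPM. The part of these transcripts in the KO differences was not tested. The median log2 fold change over the 10 members was -0.26 in both organs, against -0.0041 in spleen and -0.0038 in mLN over all tested genes.

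Satb1 had the lowest KO to WT ratio of the 10 genes in each organ. In spleen the WT samples read 243, 280.0, 152 and 319 CPM and the KO samples 154, 144, 145 and 149 CPM. The WT replicate 3 thus lay inside the KO range, while the other 3 WT samples were all above it, and the KO samples were tightly grouped. In mLN the WT samples read 302, 268 and 342 CPM and the KO samples 232, 205, 148 and 182 CPM, without overlap. As a log2 fold change, KO over WT, Satb1 was at -0.75 in spleen (SE 0.18, 95% interval -1.14 to -0.35, adjusted p = 0.0692) and -0.66 in mLN (SE 0.14, interval -0.97 to -0.36, adjusted p = 0.0686). DESeq2 gave adjusted p-values of 0.00255 and 0.000813.

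Klf13 followed the same pattern at a higher level. Its WT spleen samples read 472, 554, 355 and 599.8 CPM and its KO spleen samples 330.0, 352, 343 and 327 CPM, so the groups did not overlap, although WT replicate 3 came close to the highest KO sample. In mLN the values were 520.4, 515 and 579.6 CPM in WT and 449, 379, 340.2 and 386 CPM in KO, again apart. Klf13 had log2 fold changes of -0.55 in spleen (SE 0.14, 95% interval -0.85 to -0.25, adjusted p = 0.0703) and -0.47 in mLN (SE 0.10, interval -0.69 to -0.26, adjusted p = 0.0661). DESeq2 gave adjusted p-values of 0.00544 in spleen and 0.00138 in mLN.

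In the main edgeR setting, the calls of Satb1 and Klf13 depended on which libraries entered the fit. With every library in, the tool and the filter also mattered, as the closing section gives. Without WT spleen replicate 3 edgeR called 3 members in spleen, with adjusted p-values of 0.00252 for Satb1, 0.00758 for Klf13 and 0.0463 for Foxo3, against 2.24% of all genes. Without KO mLN replicate 1, the KO sample with the highest Satb1 and Klf13, it called both genes in mLN at adjusted p-values of 0.0449 and 0.0404, against 0.827% of all genes. Leaving out the lowest WT or the highest KO sample widens the difference by itself, so these calls add no support. Satb1 and Klf13 were each called in 1 of 8 such fits in spleen and 1 of 7 in mLN. Their edgeR adjusted p-values reached 0.165 and 0.179 in spleen and 0.2325 and 0.224 in mLN. WT spleen replicates 3 and 4 were the libraries rich in haemoglobin transcripts, and they held the lowest and the highest Satb1 of their group. With both left out, the log2 fold changes were -0.82 for Satb1 (adjusted p = 0.00246) and -0.60 for Klf13 (adjusted p = 0.0133), against 0.81% of all genes called in that fit.

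The TCF-1 and LEF-1 genes did not pass between KO and WT in either organ. Tcf7 read 309.6, 370.5, 296 and 395 CPM in WT spleen and 413, 390.2, 309 and 334 CPM in KO spleen, which overlapped throughout. The log2 fold change of Tcf7 was 0.08 in spleen (95% interval -0.19 to 0.34) and 0.12 in mLN (interval -0.04 to 0.29), so that in mLN a fall in KO by more than 0.04 on the log2 scale lay outside the interval. Lef1 read 156, 186, 150.0 and 258 CPM in WT spleen and 175, 156, 131 and 135 CPM in KO spleen. Its log2 fold change was -0.33 in spleen (interval -0.70 to 0.04, adjusted p = 0.296) and -0.36 in mLN (interval -0.67 to -0.05, adjusted p = 0.252).

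The 2 forkhead factors of the FOXO class had different KO values. Foxo1 had the smallest spread of the 10 genes relative to its level, 69.2 to 97.2 CPM over all 15 samples, with log2 fold changes of 0.11 in spleen (95% interval -0.05 to 0.27) and -0.0044 in mLN (interval -0.26 to 0.26). Foxo3 read 42.1, 36.9, 50.0 and 38.6 CPM in WT spleen and 49.3, 60.2, 57.9 and 50.1 CPM in KO spleen, so that WT replicate 3 lay within the KO range. In mLN it read 22.3, 24.6 and 18.7 CPM in WT and 24.1, 30.3, 45.7 and 29.8 CPM in KO, where the lowest KO sample lay among the WT values. Foxo3 had log2 fold changes of 0.37 in spleen (interval 0.13 to 0.62, adjusted p = 0.107) and 0.57 in mLN (interval 0.09 to 1.05, adjusted p = 0.245).

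Foxp1 had lower KO means in both organs, at a log2 fold change of -0.28 in spleen (95% interval -0.59 to 0.03, adjusted p = 0.295) and -0.33 in mLN (interval -0.57 to -0.09, adjusted p = 0.192). In mLN its WT samples read 177, 186 and 201 CPM and its KO samples 164, 154, 158 and 123 CPM, without overlap. Prdm1 also lay apart in mLN, at 18.1, 17.3 and 25.7 CPM in WT and 13.3, 16.8, 12.5 and 10.4 CPM in KO. For Prdm1 the log2 fold change was -0.33 in spleen (interval -0.65 to -0.01, adjusted p = 0.232) and -0.62 in mLN (interval -1.10 to -0.14, adjusted p = 0.208). In all, 4 members did not overlap between WT and KO in mLN (Foxp1, Klf13, Prdm1 and Satb1), against 14.0% of all tested genes, and 2 in spleen (Klf13 and Myb), against 12.0%.

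Myb and Bach2 rest on few reads, at most 190 per sample. Myb read 7.37, 9.49, 6.31 and 9.23 CPM in WT spleen and 12.8, 13.1, 11.0 and 10.1 CPM in KO spleen, without overlap. In KO mLN it was split, with 17.3 and 17.0 CPM in replicates 2 and 4 against 7.35 and 8.90 CPM in replicates 1 and 3. Its log2 fold change was 0.53 in spleen (95% interval 0.16 to 0.90, adjusted p = 0.120) and 0.50 in mLN (interval -0.25 to 1.25, adjusted p = 0.535). Bach2 ranged from 6.85 to 14.0 CPM in WT spleen and from 8.13 to 9.85 CPM in KO spleen, with log2 fold changes of -0.25 (interval -0.69 to 0.20) in spleen and -0.20 (interval -0.74 to 0.35) in mLN.

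**Figure D2:**
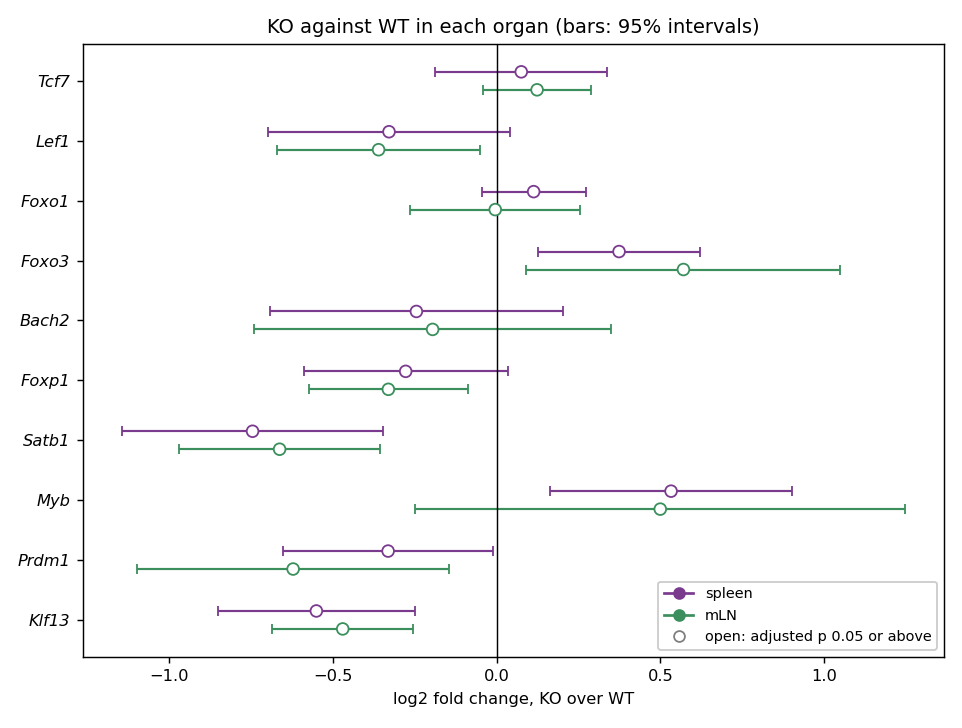
Log2 fold change, KO over WT, of each of the 10 genes in spleen and mLN, with 95% intervals from edgeR. All points are open because no gene had an adjusted p under 0.05. The intervals of Satb1, Klf13 and Prdm1 lie below 0 and those of Foxo3 above 0 in both organs.

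The second comparison asks how the factors differed between the organs. Lef1 was higher and Foxo3 lower in mLN than in spleen in both genotypes, and in KO cells Tcf7, Foxp1 and Satb1 were also higher in mLN. In WT cells 2 of the 10 members passed the test, against 20.5% of 14515 tested genes, and in KO cells 5 of 10, against 25.3% of 14240. This test took all samples as independent. Spleen and mLN samples of the same number deviated together in WT cells, and with the replicate number as a block 4 members passed in WT, against 30.0% of all genes. Differences between organs or genotypes in bulk RNA cannot tell fewer cells of a type from less RNA per cell.

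Lef1 rose from 156, 186, 150.0 and 258 CPM in WT spleen to 287, 265 and 370.0 CPM in WT mLN. In KO cells it rose from 175, 156, 131 and 135 CPM to 288, 247, 197 and 225 CPM. The organs did not overlap in either genotype, although WT spleen replicate 4 came close to the lowest WT mLN sample. The log2 fold change, mLN over spleen, was 0.70 in WT (SE 0.19, adjusted p = 0.0313) and 0.66 in KO (SE 0.12, adjusted p = 0.00256). The WT call of Lef1 was lost in 5 of the 7 fits that left out a sample, with adjusted p-values up to 0.111, and was 0.000684 with the replicate block.

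Foxo3 went the other way. It fell from 42.1, 36.9, 50.0 and 38.6 CPM in WT spleen to 22.3, 24.6 and 18.7 CPM in WT mLN, and from 49.3, 60.2, 57.9 and 50.1 CPM in KO spleen to 24.1, 30.3, 45.7 and 29.8 CPM in KO mLN. The organs were apart in both genotypes. The log2 fold change of Foxo3 was -0.95 in WT (SE 0.14, adjusted p = 0.00262) and -0.76 in KO (SE 0.17, adjusted p = 0.00762), and each of the 15 fits that left out a sample kept the call. Foxo1 did not pass, at 0.21 in WT (adjusted p = 0.122) and 0.08 in KO (adjusted p = 0.627).

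Tcf7 read 446, 415 and 459.9 CPM in WT mLN and 481, 456, 472 and 509 CPM in KO mLN, above every spleen sample of the same genotype. The log2 fold change of Tcf7 was 0.35 in WT (SE 0.11, adjusted p = 0.0534, or 0.0203 with the replicate block) and 0.39 in KO (SE 0.09, adjusted p = 0.00929). Foxp1 was at 0.46 in WT (SE 0.16, adjusted p = 0.0713, or 0.0107 with the block) and 0.39 in KO (SE 0.10, adjusted p = 0.0143). The organs were also apart for Foxp1 in both genotypes. Satb1 was at 0.28 in WT (adjusted p = 0.387) and passed in KO at 0.35 (SE 0.11, adjusted p = 0.0410), where KO mLN replicate 3, at 148 CPM, lay within the spleen range. That KO call of Satb1 was lost in 6 of the 8 fits without a sample.

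The remaining 4 members did not pass between organs. Bach2 had log2 fold changes of 0.51 in WT (95% interval -0.02 to 1.04, adjusted p = 0.159) and 0.55 in KO (interval 0.08 to 1.01, adjusted p = 0.0817), among the larger of the 10 genes but with few reads. Klf13 was at 0.11 and 0.18, Myb at 0.13 and 0.09, and Prdm1 at -0.07 in WT and -0.37 in KO (interval -0.74 to -0.0031, adjusted p = 0.131). The intervals for Klf13 ran from -0.25 to 0.47 in WT and from 0.0039 to 0.36 in KO. Groups without overlap were found for 5 members in WT, against 31.9% of all genes, and for 4 in KO, against 28.8%.

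Other transcripts moved between organs as well. The early response genes summed to 1170 to 1855 CPM in spleen and 624 to 1528 CPM in mLN, and of those tested 7 of 9 fell in KO mLN and 0 of 7 passed in WT. The 4 neutrophil markers summed to 117 to 443 CPM in spleen and 16.3 to 61.3 CPM in mLN, and the 8 myeloid markers to 116.7 to 384.5 CPM and 52.7 to 236.5 CPM. The 2 CD8 T cell markers summed to 1.57 to 4.96 CPM in spleen, 7.31 to 11.5 CPM in WT mLN and 19.5 to 28.3 CPM in KO mLN. Mean Cd8a went from 0.42 CPM in spleen to 4.84 CPM in mLN in WT, and from 0.83 to 18.5 CPM in KO. Mean Cd8b1 went from 2.86 to 4.5 CPM in WT and from 1.86 to 4.3 CPM in KO. The part of these transcripts in the organ differences of the 10 members was not tested.

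**Figure D3:**
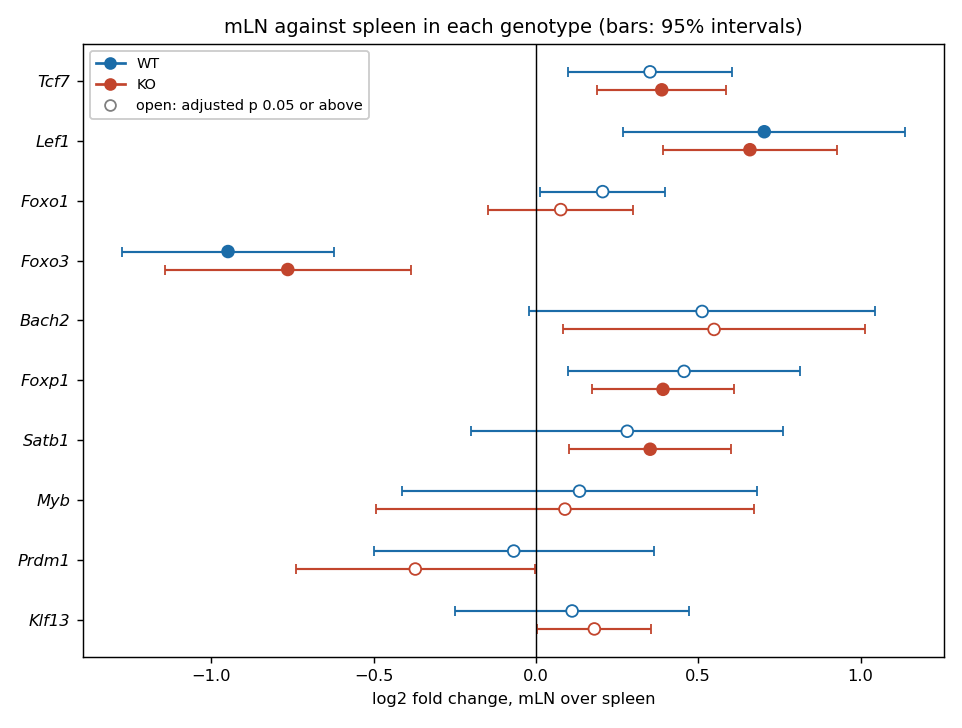
Log2 fold change, mLN over spleen, of each of the 10 genes in WT and KO cells, with 95% intervals from edgeR. Filled points had an adjusted p under 0.05, which were Lef1 and Foxo3 in both genotypes and Tcf7, Foxp1 and Satb1 in KO cells. Foxo3 is the gene furthest below 0.

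Whether the KO difference itself depended on the organ was tested as a genotype by organ interaction over all 15 samples. No member passed, none had an unadjusted p under 0.05, and DESeq2 also called none, while edgeR called 0 of 15438 genes (0.0%) at the adjusted limit and 4.22% at the unadjusted one, and DESeq2 called 4 genes in all (0.0259%). The interaction, as the mLN minus the spleen log2 fold change, ranged from -0.29 for Prdm1 (95% interval -0.84 to 0.25) to 0.19 for Foxo3 (interval -0.32 to 0.71). The intervals leave room for differences of this size, and the calls of Tcf7, Foxp1 and Satb1 between organs in KO but not WT are therefore not shown to be particular to KO cells.

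Within samples the ratio of 2 members' reads is free of the scaling between libraries. The Satb1 to Tcf7 ratio was 0.785, 0.756, 0.511 and 0.807 in WT spleen and 0.374, 0.370, 0.469 and 0.447 in KO spleen. In mLN it was 0.677, 0.645 and 0.743 in WT and 0.482, 0.451, 0.314 and 0.358 in KO. Every WT sample was above every KO sample of its organ. The Tcf7 to Lef1 ratio was 1.53 to 1.99 in WT spleen against 2.36 to 2.49 in KO spleen, and 1.24 to 1.57 in WT mLN against 1.67 to 2.39 in KO mLN, again apart. The Foxo1 to Foxo3 ratio was 1.38 to 2.14 in WT spleen and 3.47 to 4.53 in WT mLN, while KO ranged from 1.35 to 1.61 in spleen and from 1.92 to 4.03 in mLN. Bach2 reads stayed below those of Prdm1 in every WT sample (0.340 to 0.787) and KO spleen sample (0.435 to 0.577), and exceeded them in 2 of the 4 KO mLN samples (1.29 and 1.25). These ratios were chosen after the values were seen and were not tested.

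**Figure D4:**
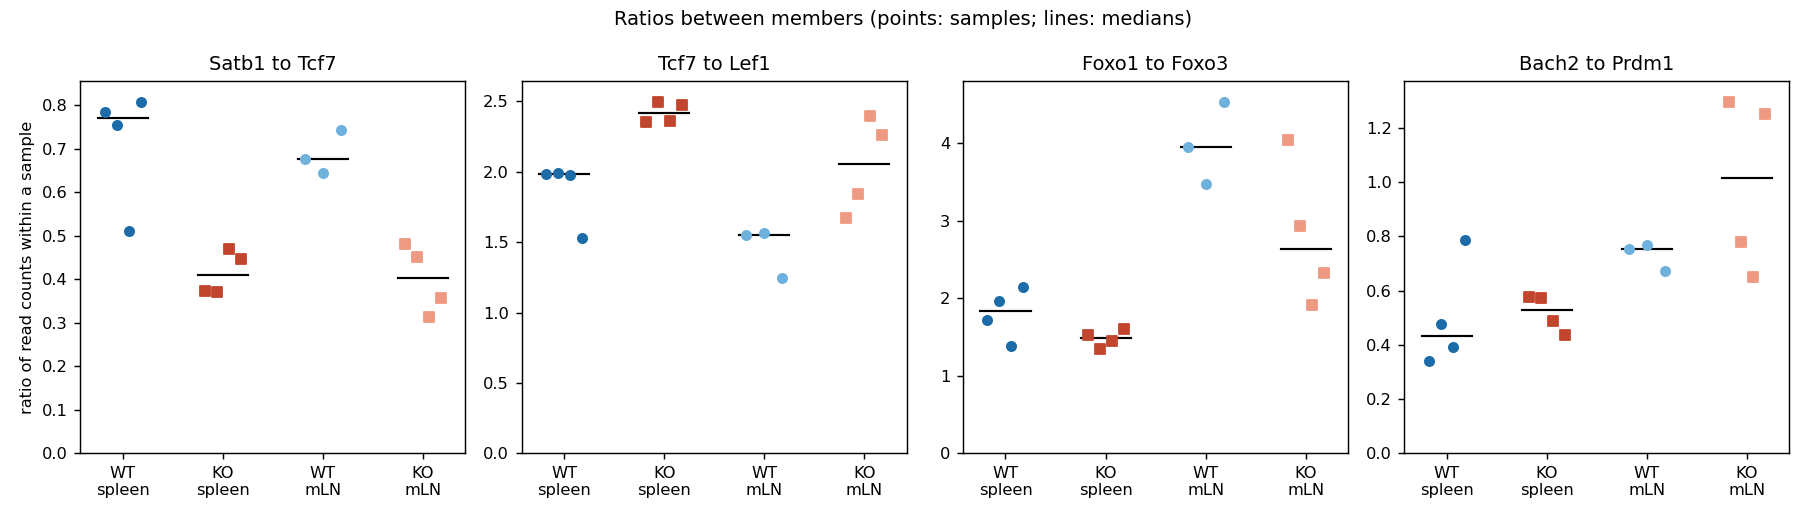
Ratio of the read counts of 2 members within each sample (points), with group medians (lines), for 4 pairs of genes. The Satb1 to Tcf7 ratio is lower and the Tcf7 to Lef1 ratio higher in every KO sample than in every WT sample of the same organ.

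The likeness of Satb1 and Klf13 ran through the individual samples. Over all 15 samples Klf13 was the gene most like Satb1 of 15438 genes, with Pearson's r = 0.977 between their log2 CPM, and r was 0.949 after the 4 group means had been removed. Il7r (r = 0.952) and Hbp1 (r = 0.947) came next. The points share libraries and groups, so r describes them and was not tested. The genes most like Tcf7 were Slamf6 (r = 0.964), Dgka (r = 0.930) and Tatdn2 (r = 0.913). Those most like Lef1 were Pym1 (r = 0.947), 6530413G14Rik (r = 0.946) and Gm11346 (r = 0.945). Foxp1 was most like Dnah12 (r = 0.945), Gpr183 (r = 0.945) and Smurf2 (r = 0.939), and Foxo3 most like Fbxo42 (r = 0.954), Psd4 (r = 0.945) and Pygb (r = 0.943). Among the members themselves, Lef1 and Foxo3 were the most opposed over all samples, at r = -0.923, and lay at -0.685 after the group means had been removed, where Foxo3 and Satb1 had the lowest value (r = -0.795).

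Several annotated transcripts lie inside the introns of Satb1 on the same strand, and the source does not say whether counting used strand. The most abundant, C230085N15Rik, had 24795 reads over all samples against 33752 for Satb1. It read 207, 185, 93.4 and 286 CPM in WT spleen and 97.2, 87.9, 80.0 and 80.5 CPM in KO spleen, the low WT value again being replicate 3. Its log2 fold change, KO over WT, was -1.16 in spleen (SE 0.26, adjusted p = 0.0595) and -0.68 in mLN (SE 0.17, adjusted p = 0.110). E430014B02Rik, another such transcript, fell in KO spleen by 1.30 on the log2 scale (SE 0.26, adjusted p = 0.0475) and had -0.68 in mLN (adjusted p = 0.143). Between organs, C230085N15Rik, E430014B02Rik and 5830444F18Rik rose in KO mLN with log2 fold changes of 0.74, 1.42 and 1.03. Gm37248, another intronic transcript with 4632 reads over all samples, did not, at 0.0073 (edgeR, adjusted p = 0.983). Reads of unspliced Satb1 RNA and of these transcripts cannot be told apart in the counts. The antisense Gm43352 overlaps exons of Lef1 and had 4619 reads over all samples against 33527 for Lef1, so some Lef1 reads are likewise uncertain. Gm42449 lies on the Lef1 strand within the gene, overlaps none of its exons and had 5651 reads. Opposite to Lef1, it fell in mLN. Its log2 fold change in edgeR was -0.71 in WT (adjusted p = 0.0414) and -0.96 in KO (adjusted p = 0.00571). Antisense transcripts also overlap exons of Foxo1 (Gm20402, 1209 reads against 12697), Bach2 (Bach2os, 196 against 1786) and Myb (Gm26577, 171 against 1645).

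**Figure D5:**
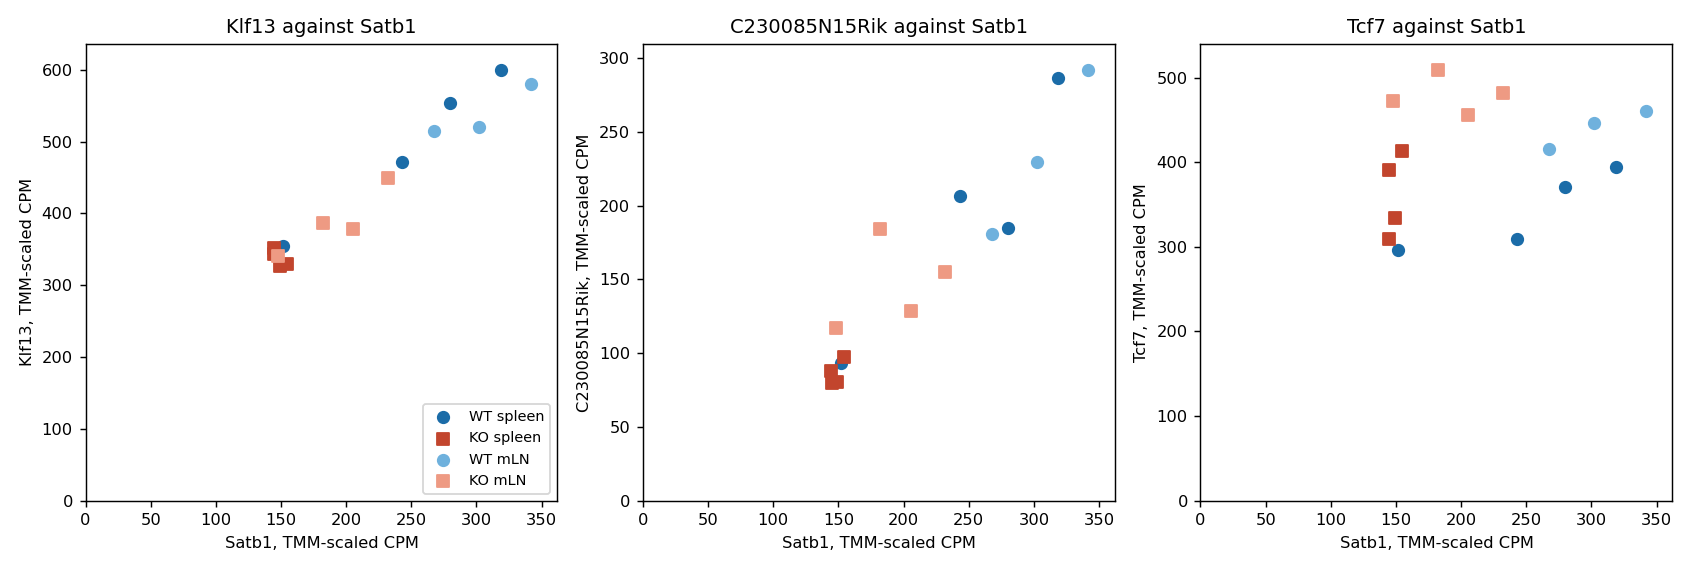
Klf13, the intronic transcript C230085N15Rik and Tcf7 against Satb1, each in TMM-scaled CPM, 1 point per sample with blue circles for WT and red squares for KO. Klf13 follows Satb1 (r = 0.977 of log2 CPM) and WT spleen replicate 3 sits among the KO spleen samples at 152 CPM of Satb1, while Tcf7 values of KO and WT overlap.

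Genes around the members were read from lists of their relatives, regulators and targets. Of 14 FOXO target genes, 13 were tested between KO and WT in each organ, of which Il7r and Ctla4 fell in spleen, Il7r fell in mLN and none rose. Such KO against WT counts stand beside 1.3% of all tested genes called in spleen and 0.641% in mLN. Il7r, the receptor chain for interleukin-7, went from 785 ± 302 CPM (SD, n = 4) in WT to 282 ± 46.1 (n = 4) in KO spleen, a log2 fold change of -1.48 (SE 0.26, adjusted p = 0.0391), and from 1344 ± 158 (n = 3) to 444 ± 95.8 (n = 4) in mLN, at -1.60 (SE 0.15, adjusted p = 0.00314). Ctla4, the inhibitory receptor, was at -0.78 in spleen (SE 0.14, adjusted p = 0.0391) and -1.27 in mLN (adjusted p = 0.0704). The median log2 fold change of the tested targets was -0.18 in spleen and -0.51 in mLN. Klf2 and Ccr7, of lymph node homing, did not pass, with Klf2 at 0.74 in spleen (adjusted p = 0.269) and Ccr7 at -0.49 (adjusted p = 0.533). None of the 18 regulators of FOXO passed between KO and WT in either organ, and Pik3ip1, an inhibitor of PI3K, was at -1.52 in spleen (adjusted p = 0.0516) and -1.12 in mLN (adjusted p = 0.100).

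Between organs, 3 of 14 tested FOXO targets rose and 1 fell in WT mLN, and 6 of 13 rose and 3 fell in KO mLN. The counts of this and the following lists stand beside 20.5% of all tested genes called in WT and 25.3% in KO. Klf2 rose by 1.36 in WT (SE 0.36, adjusted p = 0.0270) and 0.71 in KO (adjusted p = 0.0337) on the log2 scale, and Ccr7 by 1.77 (adjusted p = 0.0234) and 1.47 (adjusted p = 0.00128). Ctla4 was higher in mLN in both, and Rictor, a part of mTORC2, lower. Of 18 FOXO regulators 4 fell in WT mLN and 9 fell and 2 rose in KO mLN, among them Mtor, the kinase of the mTOR complexes, at -1.05 in WT (adjusted p = 0.000726) and -0.91 in KO (adjusted p = 0.000172). The FOXO relative Foxo4 fell with Foxo3, at -0.67 in WT (SE 0.17, adjusted p = 0.0216) and -1.28 in KO (SE 0.20, adjusted p = 0.000870), and Bach1 fell at -1.03 and -1.15 while Bach2 did not. In all 2 of 16 tested relatives of the members rose and 4 fell in WT mLN, and 1 rose and 3 fell in KO mLN, and none passed between KO and WT.

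Of 14 tested partners of TCF-1 and LEF-1, none passed between KO and WT in either organ. Between organs, 1 rose and 5 fell in WT mLN, against 20.5% of all genes called in either direction, and 1 rose and 6 fell in KO mLN, against 25.3%. Tle3, a Groucho corepressor, went from 234 ± 26.2 CPM (SD, n = 4) in WT spleen to 95.8 ± 19.5 (n = 3) in WT mLN, a log2 fold change of -1.30 (SE 0.14, adjusted p = 0.000505), and was at -1.31 in KO (adjusted p = 2.22e-05). Axin2, a known target and inhibitor of Wnt signalling, was lower in mLN at -0.78 in WT (adjusted p = 0.0231) and -0.91 in KO (adjusted p = 0.00351), while Tcf7 and Lef1 had higher values there.

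Of 18 effector transcription factors, Eomes rose in both organs and Id2 fell in mLN in KO cells. All tested genes called between KO and WT made up 1.3% in spleen and 0.641% in mLN. Eomes, a T-box factor, was at 0.93 in spleen (SE 0.17, adjusted p = 0.0444) and 1.13 in mLN (SE 0.21, adjusted p = 0.0422), and Id2 at -0.53 in mLN (SE 0.09, adjusted p = 0.0392). Among 14 other factors of quiescent lymphocytes Id3, an inhibitor of E proteins, rose in KO at 1.36 in spleen (adjusted p = 0.0370) and 1.23 in mLN (adjusted p = 0.0414), and the other 13 did not pass. Between organs, none of the effector factors passed in WT, while in KO mLN 1 rose and 3 fell, with Tbx21, which encodes T-bet, at -0.82 (adjusted p = 0.000493). Of the quiescence list Id3 and Slfn2 rose and Ikzf1 and Tcf3 fell in mLN in both genotypes, joined by a fall of Runx1 in KO. Slfn2, whose loss is known to break T cell quiescence, was at 1.17 in WT (SE 0.10, adjusted p = 0.000189) and 1.19 in KO (SE 0.08, adjusted p = 2.28e-06).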

How the data were processed

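RNA was sequenced from sorted CD4+ T cells of 15 samples, grouped by genotype and organ as their titles state. The authors aligned single-end reads with STAR 2.6.1a to GRCm38 with GENCODE M23 annotation, counted reads per gene with STAR and used DESeq2 1.22.2, and they deposited raw counts per gene with no normalization. The submitters' processing notes also name bcl2fastq 2.19.1.403 and RSEM. Between 58.4% and 63.4% of unique reads lay on no gene, and reads that map to several places were not counted, which lowers genes with close copies. Strand use is not given in the sources used here.

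Symbols, positions and exon lengths came from GENCODE M21 on GRCm38, which matched 55240 of 55421 genes, and all 10 members matched. CPM are counts per 1000000 reads on genes after TMM scaling. Each pair of groups was fitted separately with edgeR 4.0.16 in R 4.3.3 (filterByExpr, TMM, quasi-likelihood test, Benjamini-Hochberg adjustment over all tested genes, limit 0.05), and the interaction over all samples. Intervals are 95% t intervals from the same fits. DESeq2 1.42.0 and the other settings of the closing section were alternatives. Biological coefficients of variation were 15.3% to 21.6%. In counts simulated from the real means, edgeR recovered 75% and 59% of genes changed by 1 on the log2 scale for KO against WT in spleen (14254 genes) and mLN (14359 genes), and 96% and 91% of those changed by 2. Of the genes called there, 6.56% and 3.85% had not been changed. Smaller changes, such as those of every member between KO and WT, were not simulated.

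Same-numbered WT spleen and mLN samples deviated together (correlations of 0.258, 0.243 and 0.291 across 15438 genes), a link found in the data and not given in the labels. The main fits, the interaction among them, did not use this link. The replicate number entered only as a block in an alternative fit. The correlations were 0.0258 to 0.259 for KO spleen and mLN and -0.210 to 0.146 between WT and KO, and the main fits used no pairing there either. P-values weigh each difference against the spread between these samples, which the main fits took as independent. The members and lists were chosen with earlier results of these data known. All 10 members are named in every comparison, list genes where they passed in at least 1 comparison, and the 3 genes with the highest r for each member that passed. Python 3.11.15 was used for the other steps.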

Additional observations from a re-analysis of the deposited data

Results flagged for a closer look

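The Bach2 level of KO spleen replicate 2 lay apart from its group, at 9.85 CPM against 8.13 to 8.42 CPM in the other 3 KO spleen samples, with a gap to the nearest of 0.83 of the group's whole range. It was the only such value among the 30 groups of 4 samples examined (10 members in WT spleen, KO spleen and KO mLN), and chance alone gives about 1 in 20. The gap is small in reads, and Bach2 had at most 185 reads in any sample.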

How the results depend on the processing

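The number of members called depended on the tool and the filter more than on the scaling, and the cause was not tested. KO against WT called 0 members in each organ. DESeq2 called 2 in spleen and 2 in mLN, against 5.77% and 4.11% of all genes, no filter on low counts 4 and 3, against 4.03% and 2.71%, and at least 10 counts in every sample 2 in mLN, against 0.993%. Leaving out 1 sample gave 0 to 3 in spleen, the 3 without WT spleen replicate 3, and 0 to 2 in mLN, the 2 without KO mLN replicate 1. An alternative chosen after seeing the data, without both WT spleen libraries rich in haemoglobin, gave 2 in spleen and turned Bach2 to 0.075 (log2). Between organs in WT, where 2 were called, DESeq2, no filter, all 15 samples in 1 fit and the replicate block gave 4 each, against 23.4%, 10.8%, 22.6% and 30.0% of all genes, and leaving out 1 sample gave 1 to 4, with 4 without WT spleen replicate 4. In KO, where 5 were called, leaving out 1 sample gave 4 to 7. An added limit of 1 on the absolute log2 fold change left 0 in both genotypes. The replicate block called no member between KO and WT and moved the counts of all genes there from 185 to 17 in spleen and from 92 to 1 in mLN, and in KO between organs it kept the number at 5. Between KO and WT the block joins samples that the labels link only by number, with correlations of -0.21 to 0.146. It is therefore not a pairing given by the design.

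Values near 0 changed sign. Foxo1 in mLN, KO over WT, was 0.0016 with DESeq2, 0.0017 with size-factor scaling, 0.0056 with library size alone and 0.0013 with at least 10 counts, and -0.068 to 0.093 with 1 sample left out. In WT between organs the block gave 0.049 for Prdm1 and -0.014 for Klf13, and leaving out 1 sample gave -0.12 to 0.26 for Myb, -0.27 to 0.070 for Prdm1 and -0.014 to 0.22 for Klf13. Myb in KO between organs was -0.094 to 0.29 with 1 sample left out. For the interaction the block gave 0.040 for Lef1, -0.042 for Bach2, 0.011 for Foxp1 and 0.019 for Myb. With 1 sample left out, the interaction was -0.029 to 0.12 for Tcf7, -0.23 to 0.12 for Lef1, -0.015 to 0.31 for Foxo3, -0.14 to 0.21 for Bach2, -0.20 to 0.037 for Foxp1, -0.063 to 0.26 for Satb1, -0.22 to 0.22 for Myb and -0.027 to 0.21 for Klf13. Group means of the members moved by less than 1 SD without TMM scaling. Counting error limits Bach2, Myb and Prdm1, with 66 to 281 reads per sample.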
